A study of Homo sapiens with 6 samples.

Results

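The NOTCH pathway was examined through 10 genes in NCI-H69, an established human line of small cell lung cancer that is of the neuroendocrine type. The genes were taken as a list by symbol: the receptors NOTCH1, NOTCH2 and NOTCH3, the ligands DLL1, DLL4, JAG1 and JAG2, and the nuclear effectors HES1, HES6 and HEY1. Each symbol matched 1 gene identifier, giving 10 of the 60671 gene rows in the count files. RNA was sequenced from 3 libraries of cells that received GNF5 for 48 h and 3 libraries of cells that received its vehicle DMSO for 48 h. All cells were unedited NCI-H69, labelled WT. GNF5 is an allosteric inhibitor of the ABL kinases, given at 20 µM according to the label of each sample, while the treatment text of the same samples gives the dose in millimolar. The title of the series concerns conflicts between transcription and replication after ABL inactivation, and the labels do not state whether replicates are separate cultures. P-values therefore measure only the spread between these libraries, which may be technical.

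A NOTCH receptor is a surface protein that binds a ligand of the Delta-like or Jagged type on a neighbouring cell. Binding exposes the receptor to cleavage by ADAM proteases and then by gamma-secretase, and the freed intracellular domain enters the nucleus, joins the DNA-binding protein RBPJ and a Mastermind co-activator, and turns on genes such as HES1, HEY1 and NRARP. HES and HEY proteins are repressors of the basic helix-loop-helix class that hold down proneural factors, whereas HES6 is an atypical member that opposes HES1. In small cell lung cancer, NOTCH signalling is known to restrain the neuroendocrine state, and neuroendocrine cells typically express the inhibitory ligand DLL3 at high level.

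With GNF5, 2 of the 4 ligands rose, all 3 effectors fell, and the receptors split. JAG1 rose 1.996-fold and DLL1 1.27-fold, DLL4 and JAG2 did not pass the test, HES6 fell to 0.513 of its DMSO level, and HES1 and HEY1 fell to 0.776 and 0.77 of theirs. The main receptor, NOTCH2, rose 1.11-fold and the much less abundant NOTCH1 fell to 0.713. Among the 10 genes, all of which entered the test, 3 were called higher and 4 lower at an adjusted p under 0.05 (edgeR quasi-likelihood test, Benjamini-Hochberg adjustment over 20734 genes). Over all genes tested the same rule called 31.0% higher and 30.7% lower, or 61.6% in either direction, so a count of 7 of 10 lies near this background. Past a 1.5-fold change, tested with edgeR's glmTreat, only JAG1 (higher) and HES6 (lower) were called among the 10, against 5.98% of all genes higher, 7.52% lower and 13.5% in either direction. The median log2 fold change of the 10 genes was -0.17, beside 0.0057 for all genes tested, and the median of their absolute changes was 0.37, beside 0.34.

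Total counts per library ran from 46148701 to 60697602, so that 3 counts correspond to between 0.0494 and 0.065 CPM, the count scaled to the size of its library. The mitochondrial share of counts was 7.88 to 8.66% in GNF5 libraries and 6.94 to 7.50% in DMSO libraries, and the 10 most abundant genes took 8.03 to 8.62% with GNF5 and 6.50 to 7.08% with DMSO. Of 14 fixed neuroendocrine markers 13 had counts, CALCA being at 0. As each other marker list below also had 1 marker at 0, the neuroendocrine identity showed in the levels and not in this count. The neuroendocrine markers summed to 3247 to 3313 CPM in GNF5 libraries and 2904 to 2926 CPM in DMSO libraries. Of the 13 tested, 5 rose and 5 fell, a share called of 76.9%. Over all genes tested 31.0% were higher and 30.7% lower, or 61.6% in either direction. SCG2 rose 2.08-fold and NCAM1 1.51-fold, while DDC fell to 0.418, GRP to 0.423 and ELAVL4 to 0.599 of the DMSO level. Endothelial cells also carry NOTCH4, DLL4 and Jagged ligands. Of 7 endothelial markers KDR had 0 counts, and 5 of the 7, KDR included, stayed under 1 CPM in every library. The 7 together summed to 16.6 to 21.3 CPM with GNF5 and 56.3 to 65.6 CPM with DMSO, most of it CLDN5 at 17.9 ± 2.41 CPM with GNF5 and 57.7 ± 4.57 CPM with DMSO. Fibroblast markers lacked COL3A1 and summed to 64.8 to 72 CPM with GNF5 and 120.2 to 125.9 CPM with DMSO, most of it COL1A2 at 63.5 ± 3.61 CPM with GNF5 and 119.2 ± 2.60 CPM with DMSO, whereas COL1A1 rose 1.82-fold. Leukocyte markers lacked CD3E and summed to 3.24 to 4.07 CPM with GNF5 and 4.62 to 4.93 CPM with DMSO. The non-neuroendocrine and mesenchymal list lacked YAP1, and its sum was 92.7 to 94.9 CPM with GNF5 and 60.3 to 64.7 CPM with DMSO. Most of it was CD44, at 74.47 ± 0.804 CPM with GNF5 and 53.15 ± 1.68 CPM with DMSO. Of the 12 markers, 7 stayed under 1 CPM in every library. Of the 6 tested, 4 rose and 0 fell, a share called of 66.7% beside 61.6% of all genes. Past 1.5-fold, 3 were higher and 0 lower, beside 5.98% and 7.52% of all genes. These 3 were TGFBI (8.59-fold, 2.42 CPM with GNF5 and 0.281 CPM with DMSO), ANXA1 (3.325-fold, 9.0 and 2.71 CPM) and EPHA2 (1.89-fold, 4.09 and 2.17 CPM). LGALS1 and MYOF did not pass. The part of these shifts in library make-up and markers in the results below was not tested. In bulk RNA, fewer cells of a kind and less RNA per cell cannot be told apart.

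The start regions of the effector HES1, a textbook target of NOTCH, and of HES6 and JAG1, the members past 1.5-fold, are shown from RefSeq on GRCh38.p14, each running from 250 bases before the annotated start to 50 bases from it on. The HES1 window is chr3:194135898-194136197 on the plus strand, the HES6 window chr2:238239989-238240288 on the minus strand and the JAG1 window chr20:10673950-10674249 on the minus strand. Capitals mark matches on either strand to TGGGAA (a core of RBPJ sites), CACNAG (the N-box of HES proteins), CAGCTG (an E-box of proneural factors) or CACGTG (an E-box of MYC-type and HEY proteins).
HES1: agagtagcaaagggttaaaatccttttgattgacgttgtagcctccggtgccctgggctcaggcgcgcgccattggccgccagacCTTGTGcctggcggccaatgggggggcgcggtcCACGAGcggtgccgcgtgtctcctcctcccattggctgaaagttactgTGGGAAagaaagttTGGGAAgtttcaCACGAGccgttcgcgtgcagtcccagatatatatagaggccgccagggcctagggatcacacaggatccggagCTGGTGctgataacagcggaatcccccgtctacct
HES6: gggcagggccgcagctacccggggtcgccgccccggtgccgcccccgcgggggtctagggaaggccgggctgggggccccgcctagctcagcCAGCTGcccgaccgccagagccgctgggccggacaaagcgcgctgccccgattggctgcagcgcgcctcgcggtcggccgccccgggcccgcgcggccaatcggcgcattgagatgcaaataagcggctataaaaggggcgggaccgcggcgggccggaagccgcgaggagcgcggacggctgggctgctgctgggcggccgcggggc
JAG1: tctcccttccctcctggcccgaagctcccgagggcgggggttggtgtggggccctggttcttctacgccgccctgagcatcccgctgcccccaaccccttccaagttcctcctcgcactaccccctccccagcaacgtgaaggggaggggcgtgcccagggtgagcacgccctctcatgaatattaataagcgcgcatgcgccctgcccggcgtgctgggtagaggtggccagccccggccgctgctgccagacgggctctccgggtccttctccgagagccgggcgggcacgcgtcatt
The HES1 window held 2 matches to TGGGAA, beginning at positions -84 and -70 from the start, and 4 to CACNAG, of which 2 lie on the opposite strand. The upstream TGGGAA match is part of the longer form GTGGGAA. Of 35116 RefSeq start windows of this length, 24.0% held TGGGAA at least 1 time and 3.8% at least 2 times, 6.25% held GTGGGAA, 38.0% CACNAG, 17.9% CAGCTG and 7.26% CACGTG. HES6 held 1 CAGCTG, beginning at -158, and neither TGGGAA nor CACNAG. JAG1 held no match to any of these letters in this window. Among the 8 members with an entry, HES1 alone held TGGGAA. The gene model of HES6 in the count files reaches past the start that RefSeq uses, so its counts also cover exons upstream of that start.

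Levels between genes were compared as TPM, which scales counts by the exon length in the files and by library size. HES6 was by far the most abundant of the 10 messages in both groups, at 326.6 ± 9 TPM with GNF5 and 635.3 ± 50.5 TPM with DMSO (SD, n = 3 each, as for all means below). JAG2 at 61.6 ± 0.861 TPM and DLL1 at 54.2 ± 4.23 TPM followed with GNF5, and at 60.2 ± 0.968 and 42.5 ± 2.32 TPM with DMSO. In GNF5 libraries NOTCH2, HEY1 and JAG1 came next at 21.2, 20.5 and 20.2 TPM, and each overlapped its neighbour in this order. In DMSO libraries the order below DLL1 was HEY1 at 26.5, HES1 at 21.1, NOTCH2 at 19.1, DLL4 at 12.5 and JAG1 at 10.1 TPM, with no overlap between neighbours. JAG1 thus stood below DLL4 in the DMSO libraries and above HES1 and DLL4 in the GNF5 libraries. NOTCH1 at 1.42 TPM with GNF5 and 1.98 TPM with DMSO, and NOTCH3 at 0.117 TPM with GNF5 and 0.171 TPM with DMSO, were last in both.

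NOTCH2 (ENSG00000134250, GRCh38 chromosome 1, 119911553 to 120100779) was the receptor most of the message came from. It had 129.1, 128.3 and 125.6 CPM in the GNF5 libraries and 110.6, 117.8 and 117.5 CPM in the DMSO libraries. All GNF5 values lay above all DMSO values, and the log2 fold change was 0.15 ± 0.036 (SE, edgeR adjusted p = 0.000804). Groups of 3 that do not overlap were seen for 65.9% of all genes tested. NOTCH2-derived genes elsewhere on chromosome 1 (NOTCH2NLA, NOTCH2NLB, NOTCH2NLC, NOTCH2NLR and the pseudogene NOTCH2P1) held 32 counts in all 6 libraries together, against 40260 for NOTCH2. Reads that map equally well to several of these genes are not counted by default, and how many there were was not measured, so the level of NOTCH2 is uncertain. NOTCH2 made up 88.5 ± 0.307% of the summed TPM of NOTCH1 to NOTCH4 with GNF5 and 83.8 ± 0.499% with DMSO.

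NOTCH1 (ENSG00000148400, chromosome 9, 136494433 to 136546048), the receptor best known from T-cell leukaemia, had 5.04, 4.57 and 4.01 CPM with GNF5 and 5.84, 6.56 and 6.71 CPM with DMSO. The groups did not overlap, and it fell by 0.49 ± 0.11 on the log2 scale (edgeR adjusted p = 0.000254). NOTCH3 (ENSG00000074181, chromosome 19, 15159038 to 15200995) was scarce, with 12, 11 and 29 counts in the GNF5 libraries and 20, 45 and 21 in the DMSO libraries. Its groups overlapped, GNF5 replicate 3 exceeding 2 of the DMSO libraries. The log2 fold change of NOTCH3 was -0.56 ± 0.39 and did not pass (edgeR adjusted p = 0.216), with a 95% interval from -1.36 to 0.24, so neither a fall of more than 2-fold nor a small rise was resolved at this depth. Without GNF5 replicate 3 the value for NOTCH3 was -1.15 and passed (edgeR adjusted p = 0.0315, over a range of 0.0315 to 0.83 for all alternatives).

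**Figure D1:**
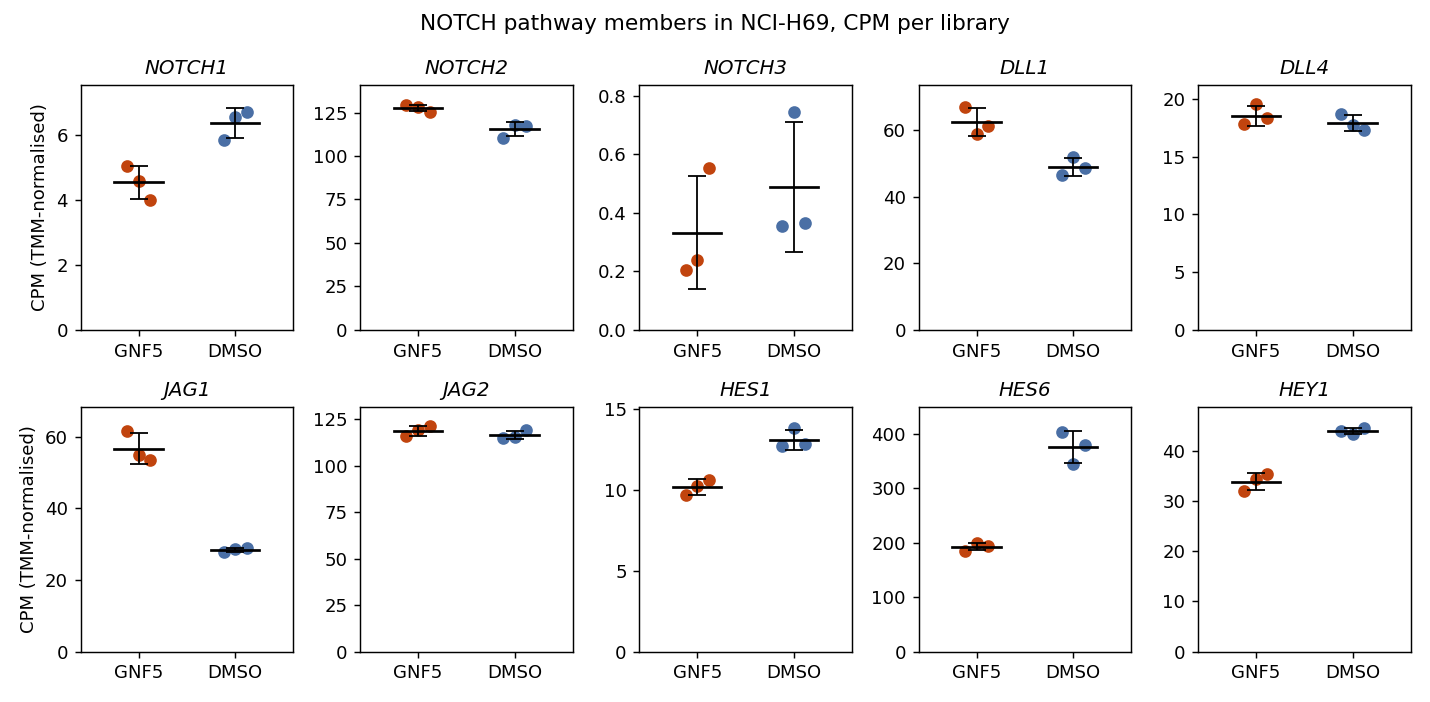
Level of each of the 10 genes in CPM (vertical axes, linear and starting at 0) in the GNF5 libraries (rust-red points, left) and the DMSO libraries (blue points, right), with the mean and SD of 3 libraries in black. The groups stand apart for 7 of the 10 genes, near the 65.9% of all genes tested, and overlap for NOTCH3, DLL4 and JAG2. JAG1 lies between 53.6 and 61.7 CPM with GNF5, above 27.8 to 29 CPM with DMSO.

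JAG1 (ENSG00000101384, chromosome 20, 10637684 to 10673999), a Jagged ligand and itself a known NOTCH target in several tissues, was, with HES6, 1 of the 2 genes of the 10 with the largest changes. Which of them was larger in size depended on the setting, as JAG1 stood at 0.971 and HES6 at -0.988 with upper-quartile factors. Its level was 61.7, 55.0 and 53.6 CPM with GNF5 and 27.8, 28.6 and 29.0 CPM with DMSO. Every GNF5 library exceeded every DMSO library by a wide margin, and JAG1 rose by 0.997 ± 0.051 on the log2 scale (95% interval 0.89 to 1.10, edgeR adjusted p = 4.43e-16). This change was larger in size than that of 88.0% of the genes tested.

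DLL1 (ENSG00000198719, chromosome 6, 170282206 to 170306565), the Delta-like ligand used widely in neurogenesis, had 67.1, 59.0 and 61.2 CPM with GNF5 and 46.7, 51.9 and 48.6 CPM with DMSO. The groups were apart, and DLL1 rose by 0.35 ± 0.049 on the log2 scale (edgeR adjusted p = 4.66e-07). DLL4 (ENSG00000128917, chromosome 15, 40929340 to 40939073), known best from vessel sprouting, had 17.8, 19.5 and 18.3 CPM with GNF5 and 18.7, 17.8 and 17.3 CPM with DMSO, with overlap. Its 95% interval ran from 0.948-fold to 1.13-fold (edgeR adjusted p = 0.508). JAG2 (ENSG00000184916, chromosome 14, 105140982 to 105168824), the most abundant activating ligand, had 116.2, 119.0 and 121.6 CPM with GNF5 and 114.9, 115.5 and 119.3 CPM with DMSO. These values overlapped too, and the interval of the change was 0.97-fold to 1.07-fold (edgeR adjusted p = 0.498). Of the exon bases of JAG2, 7.33% are shared with another gene model on the same strand, which had 4 counts in all. The 4 activating ligands summed to 148.9 ± 5.08 TPM with GNF5 and 125.3 ± 2.15 TPM with DMSO. JAG1 supplied 13.6 ± 0.749% of that sum with GNF5 and 8.07 ± 0.091% with DMSO, while the share of JAG2 was 41.4 ± 1.74% with GNF5 and 48.1 ± 1.04% with DMSO.

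**Figure D2:**
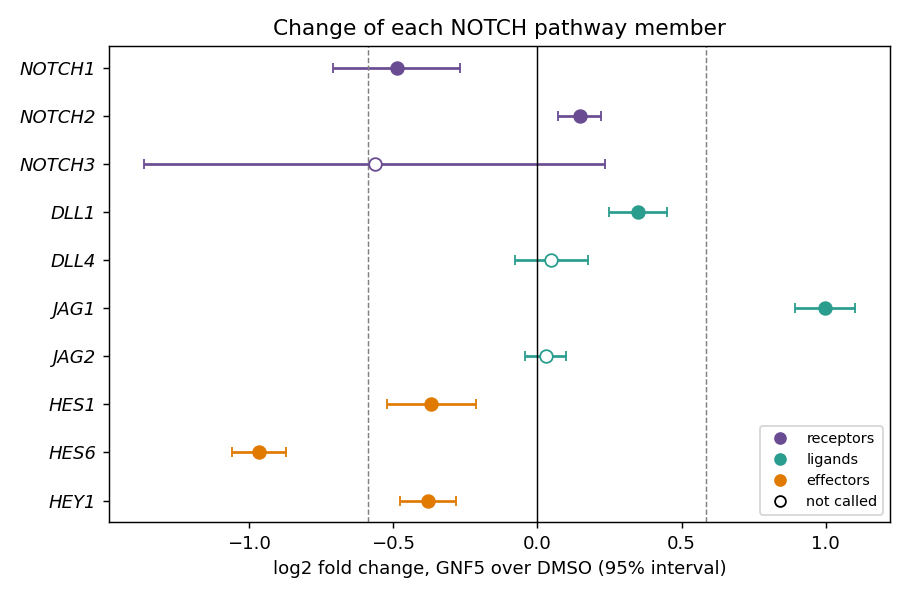
Log2 fold change of GNF5 over DMSO (horizontal axis) for each of the 10 genes, with its 95% interval as a bar, filled where the edgeR test called the gene and coloured by role; dashed lines mark 1.5-fold. JAG1 at 0.997 and HES6 at -0.96 lie beyond the dashed lines with their whole intervals, the points of the 3 effectors lie left of 0 and those of the 4 ligands right of it.

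HES6 (ENSG00000144485, chromosome 2, 238238267 to 238240662), the antagonist of HES1 and a gene of the neuroendocrine programme, had 185.2, 199.2 and 193.6 CPM with GNF5 and 403.0, 344.1 and 379.4 CPM with DMSO. Every GNF5 library lay below the lowest DMSO library. HES6 fell by 0.96 ± 0.045 on the log2 scale (95% interval -1.06 to -0.87, edgeR adjusted p = 6.82e-14), more in size than 87.2% of the genes tested.

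HES1 (ENSG00000114315, chromosome 3, 194136148 to 194138732), the repressor whose start region is shown above, had 9.69, 10.2 and 10.6 CPM with GNF5 and 12.7, 13.8 and 12.8 CPM with DMSO. All 3 GNF5 values lay below the DMSO values, and HES1 fell by 0.37 ± 0.075 on the log2 scale (edgeR adjusted p = 0.000104). HEY1 (ENSG00000164683, chromosome 8, 79762371 to 79767857), a NOTCH target studied most in vessels and the heart, had 32.0, 34.3 and 35.4 CPM with GNF5 and 44.0, 43.4 and 44.5 CPM with DMSO. The groups were again apart, with a fall of 0.38 ± 0.047 (edgeR adjusted p = 6.34e-08). NRARP, a short ankyrin protein that NOTCH induces and that limits NOTCH signalling, is not among the 10 and had a change of similar size: it fell by 0.37 ± 0.048, to 33.5 ± 1.31 CPM with GNF5, against 43.3 ± 1.80 CPM with DMSO (edgeR adjusted p = 1.03e-07).

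The other HES and HEY genes did not all follow. HES4 rose by 0.53 ± 0.065 on the log2 scale, to 27.3 ± 2.87 CPM with GNF5, against 18.8 ± 1.02 CPM with DMSO (edgeR adjusted p = 4.78e-08). HEY2, at 61.1 ± 3.73 CPM with GNF5 and 57.3 ± 2.16 CPM with DMSO, did not pass (0.09 ± 0.046). HES5, a classical target in neural precursors, was low and fell by 0.88 ± 0.21, with 157 counts over the GNF5 libraries and 321 over the DMSO libraries. HEYL was lower still and rose by 1.09 ± 0.32, with 117 counts over the GNF5 libraries and 61 over the DMSO libraries. HES2 (0.10 ± 0.16) and HES7 (0.73 ± 0.34) did not pass, and HES3 had too few counts to test. The 10 HES and HEY genes together summed to 525.8 ± 12.7 TPM with GNF5 and 816.5 ± 53.4 TPM with DMSO. HES6 made up 62.1 ± 0.32% of this sum with GNF5 and 77.8 ± 1.12% with DMSO, while HES4 made up 15.3 ± 1.12% with GNF5 and 6.82 ± 0.491% with DMSO. The lower sum with GNF5 mainly reflects HES6, at 326.6 TPM with GNF5 and 635.3 TPM with DMSO, and does not describe the other genes. HES4 (80.75 TPM with GNF5, 55.57 with DMSO) and HEY2 (75.27 and 70.41) had higher means with GNF5. HEY1 (20.45 and 26.5) and HES1 (16.37 and 21.05) had lower means.

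**Figure D3:**
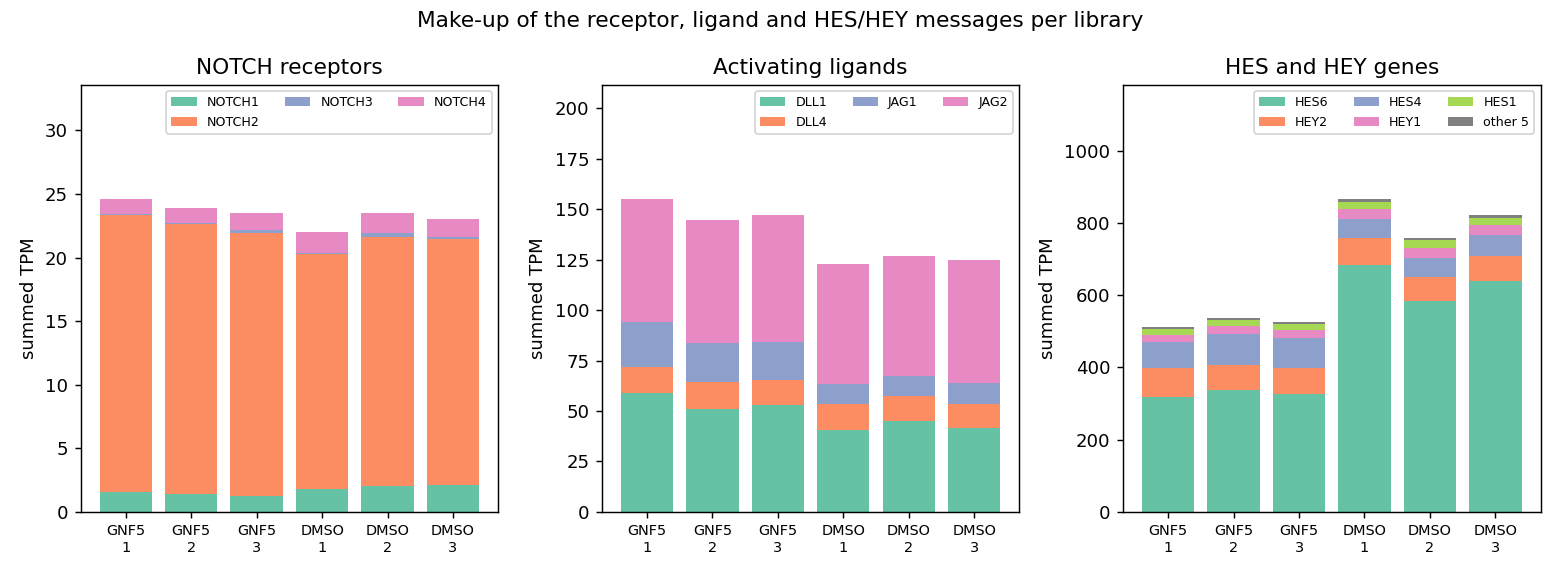
Summed TPM (vertical axes, starting at 0) of the 4 NOTCH receptors, the 4 activating ligands and the 10 HES and HEY genes in each GNF5 library (3 left bars) and DMSO library (3 right bars), coloured by gene. NOTCH2 fills 88.5% of the receptor bars with GNF5 and 83.8% with DMSO, and the HES and HEY bars average 525.8 TPM with GNF5 and 816.5 TPM with DMSO, mostly HES6. HES6 alone averages 326.6 TPM with GNF5 and 635.3 TPM with DMSO, whereas HES4 averages 80.75 TPM with GNF5 and 55.57 TPM with DMSO.

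Around the 10 genes, 76 further genes of the pathway were listed by role, and 71 of them passed the filter on low counts. Of these 28 rose and 24 fell, with a median log2 fold change of 0.061, beside 0.0057 for all genes. The share called was 73.2%, beside 61.6% of all genes, of which 31.0% were higher and 30.7% lower. Past 1.5-fold, 5 were higher and 1 lower, beside 5.98% and 7.52% of all genes. The counts by role below, of 7 to 20 tested genes each, are descriptions to be read beside these shares of all genes. Among the other receptors and ligands, NOTCH4 fell by 0.31 ± 0.12 on the log2 scale, to 3.65 ± 0.298 CPM with GNF5, against 4.52 ± 0.358 CPM with DMSO (edgeR adjusted p = 0.021), and 1.01% of its exon bases are shared with GPSM3 on the same strand. DLL3, the ligand that inhibits NOTCH within the same cell and is a therapy target on this tumour type, rose by 0.26 ± 0.044, with 86.7 ± 2.34 CPM with GNF5 and 72.5 ± 5.23 CPM with DMSO. DLK1, a Delta-like protein that lacks the receptor-binding domain of the activating ligands, rose 1.85-fold, with 14.2 ± 1.48 CPM with GNF5 and 7.64 ± 0.593 CPM with DMSO. The adhesion protein CNTN1, reported to act as a NOTCH ligand, fell by 0.59 ± 0.033, to 146.6 ± 2.73 CPM with GNF5, against 220.9 ± 1.33 CPM with DMSO, and the matrix protein MFAP2 fell by 0.28 ± 0.095. DLK2 (-0.08 ± 0.065) and DNER (-0.71 ± 0.34) did not pass, CNTN6 was too low to test, and MFAP5 had 0 counts.

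Of 9 genes for enzymes that cut the receptor, 5 rose and 2 fell, beside 31.0% higher and 30.7% lower of all genes, with a median log2 fold change of 0.22. FURIN, which cleaves the receptor on its way to the surface and has many other substrates, rose 1.82-fold, to 76.7 ± 3.57 CPM with GNF5, against 42.2 ± 0.76 CPM with DMSO. ADAM17, a protease that sheds many surface proteins, rose by 0.35 ± 0.052, whereas the gamma-secretase subunit APH1B fell by 0.49 ± 0.045. ADAM10, the protease that acts on ligand-bound NOTCH, was the other gene that fell (-0.14 ± 0.035).

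Sugar transferases that modify the receptor went both ways, with 3 of 8 higher, 4 lower and a median of -0.0053. RFNG, or Radical fringe, rose 2.11-fold, with 44.4 ± 1.01 CPM with GNF5 and 21.1 ± 1.27 CPM with DMSO. The other fringe genes fell, LFNG by 0.28 ± 0.06 and the scarce MFNG, whose groups overlapped, by 0.50 ± 0.18 on the log2 scale. POGLUT1 and EOGT, which add glucose and N-acetylglucosamine to the extracellular repeats, rose by 0.43 ± 0.076 and 0.77 ± 0.13. XXYLT1, a xylosyltransferase, fell by 0.53 ± 0.048.

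Of 14 ubiquitin ligases and endocytic regulators, 9 rose and 3 fell, beside 31.0% higher and 30.7% lower of all genes, with a median log2 fold change of 0.23. NEDD4, a ubiquitin ligase with many substrates, rose 2.63-fold, to 130.2 ± 4.46 CPM with GNF5, against 49.6 ± 2.12 CPM with DMSO. MIB2, which ubiquitinates ligands, rose by 0.37 ± 0.046. The more abundant MIB1 rose by 0.17 ± 0.037, to 377.4 ± 23.0 CPM with GNF5, against 334.8 ± 5.76 CPM with DMSO. The ligand-directed ligases NEURL1 and NEURL1B fell, NEURL1 to 2.6 ± 0.528 CPM with GNF5, against 5.71 ± 0.303 CPM with DMSO (-1.13 ± 0.13), and NEURL1B by 0.35 ± 0.041.

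In the nuclear complex and its co-repressors, 7 of 20 genes rose and 6 fell, with a median of -0.0096. BEND6, a co-repressor that binds RBPJ, showed the largest change of the 71 genes, 5.63-fold, with 7.31 ± 0.204 CPM with GNF5 and 1.30 ± 0.253 CPM with DMSO. RBPJ itself fell by 0.25 ± 0.039, and the co-activator MAML3 by 0.60 ± 0.043, to 43.7 ± 0.858 CPM with GNF5, against 66.3 ± 2.47 CPM with DMSO. The co-repressor NCOR1 rose by 0.58 ± 0.04, and the deacetylase HDAC1 fell by 0.55 ± 0.041. In the list of other HES/HEY genes, TLE partners and targets, 2 of 13 tested genes rose and 6 fell, with a median of -0.057 and a share called of 61.5%, beside 61.6% of all genes. Besides HES4 and NRARP, the factor SOX9 fell by 0.60 ± 0.047 and the Groucho-type partner of HES proteins TLE1 by 0.25 ± 0.033. RBPJ, ADAM10, LFNG, MFNG and MIB1 were named after their values were seen, as were HES5, HEYL, HEY2, HES2 and HES7.

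**Figure D4:**
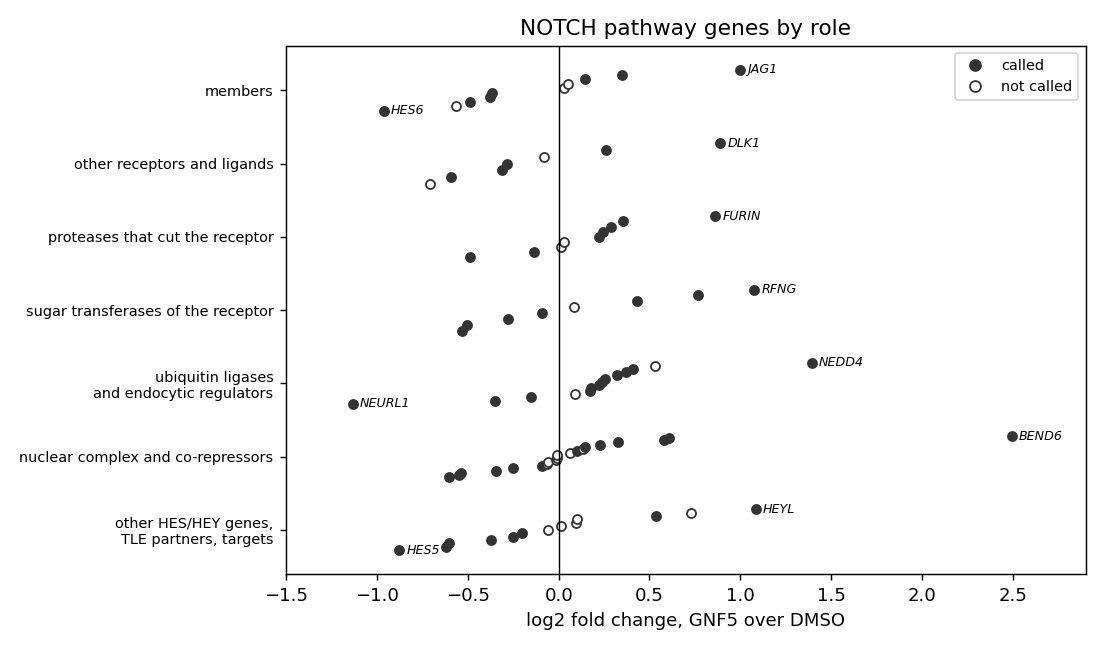
Log2 fold change of GNF5 over DMSO (horizontal axis) for the 10 members and for the 71 tested genes of 6 further lists (rows), 1 point a gene, filled where the edgeR test called it; genes beyond 0.8 in size are named. Points lie on both sides of 0 in each row, with BEND6 at 2.49 and NEDD4 at 1.39 farthest to the right and NEURL1 at -1.13 farthest to the left.

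Proneural and neuroendocrine factors moved in both directions, with 3 of 10 tested genes higher and 4 lower, a share called of 70.0% beside 61.6% of all genes. INSM1 had 1464 ± 45.8 CPM with GNF5 and 1403 ± 34.1 CPM with DMSO and did not pass (0.061 ± 0.034), nor did MYT1 (-0.0055 ± 0.049). NEUROG2 rose by 0.38 ± 0.091, PROX1 by 0.13 ± 0.041 and MYCN by 0.64 ± 0.034. NKX2-1, which shares 1.71% of its exon bases with SFTA3, fell by 0.69 ± 0.07, INSM2 by 0.64 ± 0.10 and FOXA2 by 0.30 ± 0.034.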

How the data were processed

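Raw counts for each gene were deposited, with 1 file for each of 6 libraries. The authors made these counts with featureCounts 1.6.1, per the file headers, using paired reads, the reverse-stranded setting, exon features grouped by gene identifier and Ensembl 101 gene models on GRCh38. Multi-mapped and multi-overlapping reads were handled by the default, which leaves them out. Per the submitters' processing notes, Trim Galore, STAR, HTSeq, DESeq2 and GRCh37 were also named, without roles. HTSeq and GRCh37 conflict with the file headers, which were followed, and no source used here gives the build of the alignment. Exon lengths come from the same files. Nor does any give how RNA was selected for the libraries.

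Groups came from the treatment label and replicate numbers from the titles. Symbols were looked up by identifier in a gene name table with 60401 of 60671 identifiers. Counts were fitted with edgeR 4.0.16 in R 4.3.3 (default expression filter, TMM factors, robust quasi-likelihood fit without covariates), which tested 20734 genes and removed 39937. A gene was called at an adjusted p under 0.05, and against 1.5-fold with glmTreat. CPM are TMM-normalised, and SE is the size of the log2 fold change divided by the square root of F. Intervals of 95% use the t quantile of the fit. TPM were computed from the counts and exon lengths. The procedure was tested on simulated counts with 200 changed genes, which does not cover data such as these, where 61.6% of the genes tested were called. No 2 libraries within a group were duplicates by a chi-square test of their counts (3.18 to 8.76 per degree of freedom). The alternatives were DESeq2 1.42.0, its size factors and upper-quartile factors in edgeR, no filter, a stricter filter (1 CPM in all libraries of a group), the replicate number as a block, and each library left out.

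The members and lists were chosen with earlier results of these data known. Named are all 10 members, all other receptors and ligands, up to 4 called genes of lowest p-value in each further list, and proneural factors, the last 2 kinds at a mean log2 CPM of at least 1. Some genes that the rule names are not reported here.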

Additional observations from a re-analysis of the deposited data

How the results depend on the processing

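Of 178 alternative values for 15 results, 177 kept their direction and their side of the threshold or, for counts, stayed within 1.5 times. The exception was NOTCH3, whose log2 fold change ran from -1.15 (without GNF5 replicate 3, where it passed) to -0.126 when 1 library was left out; it could not be tested under the stricter filter. JAG1 stayed between 0.933 and 1.04, HES6 between -1.03 and -0.914, HES1 between -0.397 and -0.329, HEY1 between -0.408 and -0.334, DLL1 between 0.295 and 0.392, NOTCH2 between 0.112 and 0.161 and NOTCH1 between -0.573 and -0.402. Members called higher numbered 3 in every alternative and members called lower 4 or 5. Counts of the other pathway genes ran from 27 to 30 higher and from 21 to 26 lower. The count of members past 1.5-fold was 2 in the 11 edgeR alternatives, which for this rule were chosen after seeing the data.

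Samples with the same replicate number in both groups did not deviate together (correlations -0.0157, 0.0159 and 0.00082). These correlations run over all genes tested, low ones included, with 3 libraries in each group. Whether samples of the same number were handled together therefore cannot be told from them. With a replicate block, 3 members were higher and 4 lower, and JAG1 was at 0.994 and HES6 at -0.961. Depth limits NOTCH3, HES5, HES7 and HEYL.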

Other observations

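Some genes of the lists lay near the detection limit and were removed by the filter on low counts. REST, a repressor of neuronal genes that NOTCH is known to induce in small cell lung cancer, had 8, 13 and 11 counts in the GNF5 libraries and 1, 4 and 2 in the DMSO libraries. With no expression filter its log2 fold change was 2.31 ± 0.73 (edgeR adjusted p = 0.00565), from 32 counts over the GNF5 libraries and 7 over the DMSO libraries. The proneural factor ATOH1 had 0 counts over the GNF5 libraries and 11 over the DMSO libraries. NEUROD1, a low proneural factor that was tested, shares 3.96% of its exon bases with CERKL on the same strand. It had 118 counts over the GNF5 libraries and 283 over the DMSO libraries and fell by 1.11 ± 0.22 on the log2 scale (edgeR adjusted p = 6.75e-05). These genes were chosen after their values were seen.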
